A study of Mus musculus with 16 samples.

Results

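The let-7 family was followed here through 6 mature arms measured in the culture supernatant of irradiated HCT116 cells: the main arms hsa-let-7b-5p, hsa-let-7c-5p and hsa-let-7i-5p and the passenger arms hsa-let-7b-3p, hsa-let-7d-3p and hsa-let-7f-1-3p, written below without the human prefix. They were chosen by name as the well-measured let-7 arms on the array, and they are 6 of the 283 human miRNAs tested. HCT116 is a human colorectal carcinoma line. Cells received X-rays at a high dose rate and were then kept for 72 h in RPMI1640 with 10% fetal bovine serum, and extracellular small RNA was taken from the medium. The groups were 0, 2, 6 and 10 Gy, with 4 independent cultures and 4 single-colour Agilent miRNA arrays at each dose, so 16 arrays in all. A dose of 2 Gy is missing from the design text and was taken from the labels of those 4 arrays. The sample labels name the organism as mouse, whereas HCT116 is a human line and the array carries human probes. All groups shared the serum. The mature let-7 arms are conserved among mammals, so miRNAs released by HCT116 and bovine miRNAs of the serum cannot be told apart, and in these bulk samples fewer releasing cells and less release per cell cannot be told apart either.

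let-7 miRNAs are made as hairpins, from which the enzyme Dicer cuts a duplex of 2 arms. The main arm, cut from the 5′ side, is the one usually loaded into Argonaute, where it represses mRNAs that pair with its seed, among them RAS, MYC, HMGA2 and LIN28 transcripts. The passenger arm, cut from the 3′ side, is usually degraded. let-7 rises as cells differentiate, it is low in many tumours, and it is commonly found outside cells, in vesicles and bound to proteins.

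The mature sequences are shown because arms of one kind differ by few bases, which bears on how far the probes can separate them. They are those of the same-named mouse arms in RefSeq (build GRCm38.p6), since no human table was used, and all 6 arms matched. Each is written 5′ to 3′ with the seed, bases 2 to 8, in capitals.
let-7b-5p: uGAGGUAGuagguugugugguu
let-7c-5p: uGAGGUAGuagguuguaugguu
let-7i-5p: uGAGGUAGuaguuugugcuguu
let-7b-3p: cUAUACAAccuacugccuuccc
let-7f-1-3p: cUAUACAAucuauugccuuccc
let-7d-3p: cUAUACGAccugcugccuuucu

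The 3 main arms have 1 seed in common, which no other tested miRNA carried among the 89 of 283 with a same-named entry. Counted from the 5′ end, let-7c-5p differs from let-7b-5p at 1 base (G17A) and let-7i-5p differs from it at 3 (G12U, U18C and G19U). Among the passenger arms, let-7f-1-3p differs from let-7b-3p at 2 bases (C9U and C13U), both outside the seed, and these arms share their last 9 bases. let-7d-3p differs from let-7b-3p at 4 bases (A7G, A12G, C20U and C22U), 1 of them in the seed. Cross-hybridisation between such similar arms was not tested, and values of let-7b-5p and let-7c-5p, or of let-7b-3p and let-7f-1-3p, may share signal.

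let-7b is the hairpin from which both arms were measured. In the mouse hairpin of 85 bases, with both arms in capitals, 32 bases lie between them.
let-7b hairpin: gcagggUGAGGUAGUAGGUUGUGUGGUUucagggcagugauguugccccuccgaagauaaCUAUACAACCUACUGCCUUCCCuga

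On each array 242 to 358 of 1205 human miRNAs were detected. Signals were scaled to the 75th percentile of each array and floored at a log2 level of -4.60, so that levels can be compared between arrays for 1 arm but not between arms. Doses 0 and 2 Gy were hybridised on 1 slide and 6 and 10 Gy on the other. Of the comparisons below, 2 Gy against 0 Gy and 10 Gy against 6 Gy therefore lie within a slide, and in 6 or 10 Gy against 0 Gy slide and dose cannot be told apart. Agilent's labelling spike-ins, 2 synthetic RNAs added before labelling, were both undetected on 0 Gy replicate 3 and 6 Gy replicate 4, and 1 was undetected on 2 Gy replicate 1 and 6 Gy replicate 1. These 4 arrays stood apart in labelling, and each comparison of the main arms with 0 Gy, and that of 10 Gy against 6 Gy, is also given without some or all of them. By Agilent's own measure the labelling spike-in was in range only on 0 Gy replicates 1 and 4 and on 10 Gy replicate 2. Leaving out the 4 arrays thus does not leave a set of arrays with labelling in range. Of 10 miRNAs known from colorectal epithelium, 7 were detected on at least 1 array, including miR-200c-3p and miR-141-3p on 15 arrays each, whereas miR-192-5p, miR-194-5p and miR-215-5p were detected on none. The blood cell markers miR-451a, miR-144-3p, miR-223-3p, miR-142-3p, miR-142-5p and miR-150-5p were detected on no array, and miR-486-5p and miR-155-5p on all 16.

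Among the main arms, let-7b-5p was bright and detected by both of its probes on every array. Its level was 0.58, 1.49, -1.39 and 1.07 in the 4 cultures at 0 Gy, and -1.27, 0.38, -1.40 and -1.25 at 2 Gy. At 6 Gy it was -2.30, -0.29, -1.62 and -3.01, and at 10 Gy -0.53, 0.21, -0.28 and -1.03 (log2 of scaled signal, replicates 1 to 4). Unirradiated replicate 3 lay with the irradiated cultures, far under the other cultures at 0 Gy, and replicate 2 was the highest culture at each dose, so every dose overlapped every other. By dose the mean level ran 0.44 ± 1.27, -0.89 ± 0.85, -1.80 ± 1.16 and -0.40 ± 0.51 at 0, 2, 6 and 10 Gy (SD over 4 cultures). The lowest mean was thus at 6 Gy and not at the highest dose.

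let-7c-5p, 1 base away from let-7b-5p, followed it closely. Its level was -0.93, 0.00, -2.94 and -0.63 at 0 Gy, and -3.14, -1.25, -3.27 and -3.04 at 2 Gy. At 6 Gy it was -3.83, -1.73, -3.28 and -4.60, the last at the floor, and at 10 Gy -1.96, -1.23, -1.73 and -2.55. The same cultures were high and low as for let-7b-5p, and replicate 3 at 0 Gy again lay within the range of the irradiated cultures. It was detected on 15 of 16 arrays, and its level came from 1 of its 2 probes, since the other was detected on 2 arrays only, both at 0 Gy.

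let-7i-5p, which comes from a hairpin of its own, gave the dimmest main-arm signals and the same pattern. Its level was -2.34, -1.01, -3.68 and -1.89 at 0 Gy and -3.53, -2.08, -3.61 and -3.76 at 2 Gy. At 6 Gy it was -4.60, -2.93, -4.47 and -4.60, with replicates 1 and 4 at the floor, and at 10 Gy -2.87, -2.78, -2.93 and -3.35. The 4 cultures at 10 Gy lay close together, and 3 of the 4 at 6 Gy lay under every culture at the other doses. It was detected on 15 of 16 arrays, and at 6 Gy by both probes in replicate 2 only.

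**Figure D1:**
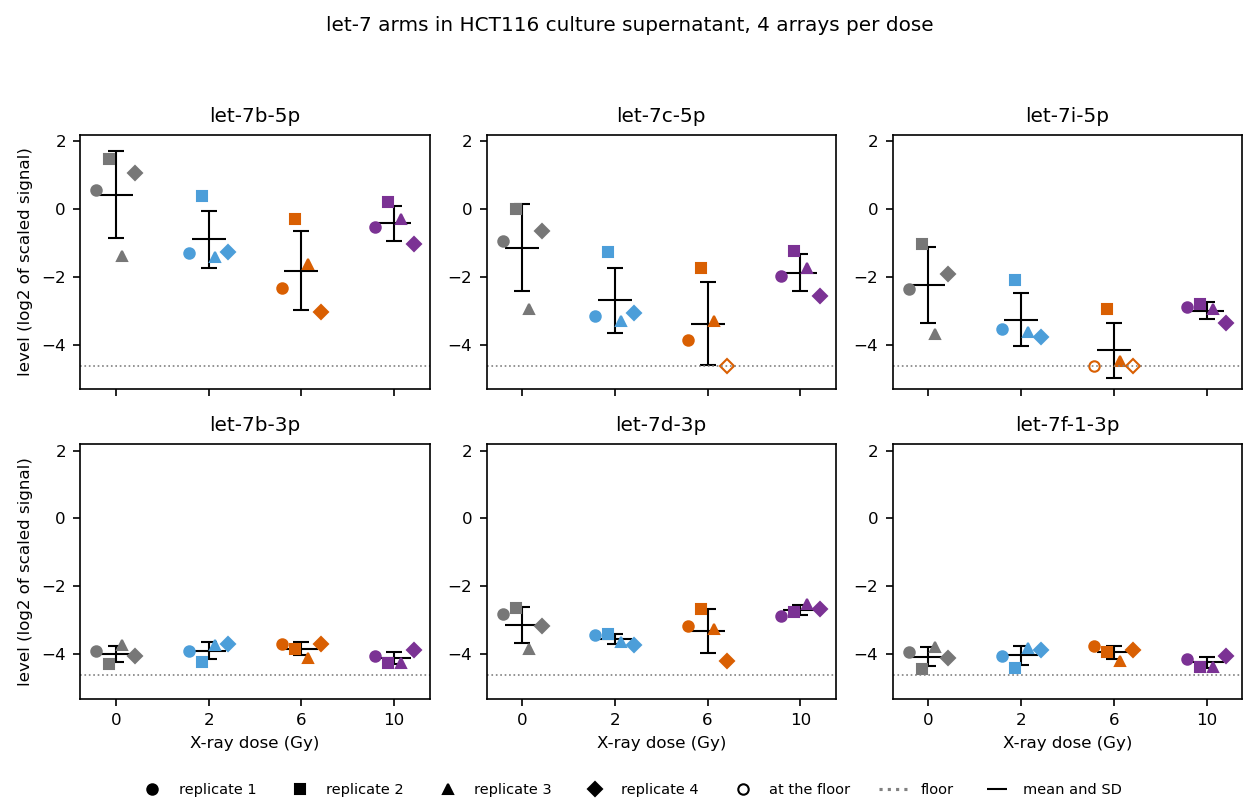
Level of each let-7 arm (log2 of scaled signal, vertical axis) by X-ray dose in Gy (horizontal axis). Symbols are the 4 replicates of a dose, the bars are the mean and SD, open symbols lie at the floor (dotted line). The 3 main arms in the upper row span 3.59 to 4.60 log2 units and are lowest on average at 6 Gy, and let-7b-3p and let-7f-1-3p in the lower row span 0.61 and 0.68.

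At 6 Gy all 3 main arms were lower in the supernatant than at 0 Gy. let-7b-5p fell by 2.24 ± 0.65 on the log2 scale, a 4.72-fold difference (difference ± SE, adjusted p = 0.0407, limma with Benjamini-Hochberg adjustment over 283 miRNAs). let-7c-5p fell by 2.24 ± 0.68 (4.71-fold, adjusted p = 0.0407, limma). let-7i-5p fell by 1.92 ± 0.53 (3.78-fold, adjusted p = 0.0353, limma). For each of them all 4 cultures at 6 Gy lay under the mean at 0 Gy, and because 1 or 2 of the 6 Gy values of let-7c-5p and let-7i-5p sit at the floor, these falls are understated. None of the 3 passenger arms was called, so 3 of 6 arms were called lower, against 13.4% of all 283 miRNAs (38) called lower and 19.4% called in either direction in this comparison. The median difference was -1.06 over the 6 arms and 0.12 over all 283 miRNAs. With 1 of the 16 arrays left out at a time, let-7b-5p and let-7c-5p kept their call in 5 of 16 fits and let-7i-5p in 7, and the adjusted p ran up to 0.113 (limma). No arm was called without replicate 1, 2 or 4 at 0 Gy, replicate 1 at 2 Gy, replicate 1, 3 or 4 at 6 Gy or replicate 1 or 3 at 10 Gy, and 1 arm was called without replicate 3 or 4 at 2 Gy. Without the 4 arrays with an undetected labelling spike-in all 3 main arms were called, with differences of -1.996, -1.99 and -1.95 for let-7b-5p, let-7c-5p and let-7i-5p (adjusted p = 0.0404, 0.0472 and 0.0408, limma), among 71 of 283 miRNAs. These 4 arrays include replicates 1 and 4 at 6 Gy and replicate 3 at 0 Gy, so few cultures were left in that comparison.

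**Figure D2:**
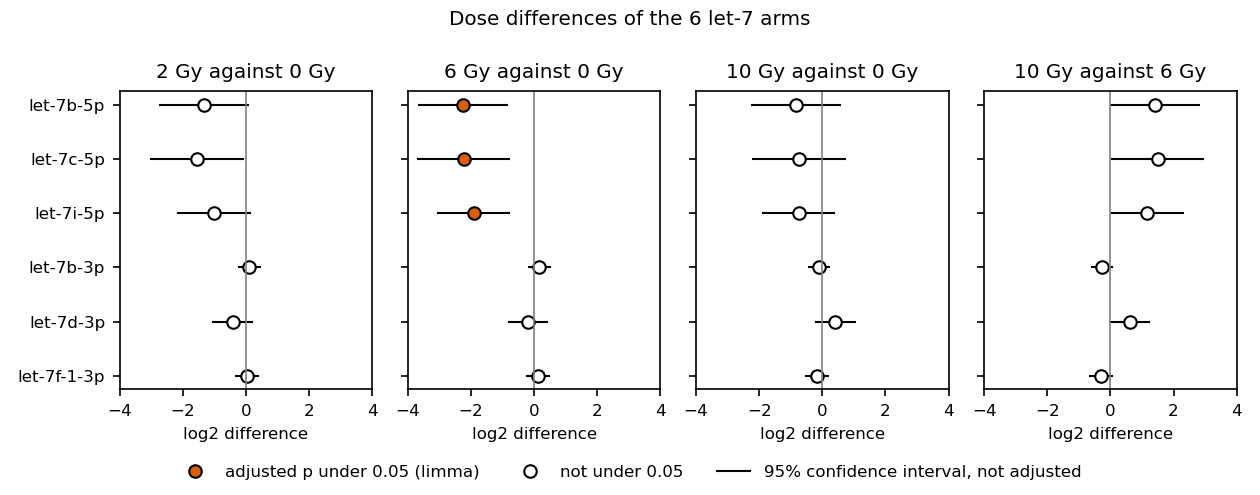
Difference of each let-7 arm (log2, horizontal axis) in 4 dose comparisons, with its 95% confidence interval before adjustment over miRNAs. Filled points, the 3 main arms at 6 Gy against 0 Gy, had an adjusted p under 0.05 in limma. The main arms lie left of 0 in all comparisons with 0 Gy and right of it at 10 Gy against 6 Gy.

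At 2 Gy against 0 Gy, which shared a slide, no let-7 arm passed the test. Over all 283 miRNAs 6.71% were called lower and 6.01% higher. The difference was -1.32 ± 0.65 for let-7b-5p (adjusted p = 0.157), -1.55 ± 0.68 for let-7c-5p (adjusted p = 0.122) and -1.01 ± 0.53 for let-7i-5p (adjusted p = 0.173, limma). At an unadjusted p under 0.05 stood let-7c-5p alone among the 6 arms, beside 35% of all 283 miRNAs. The mean level of the main arms at 2 Gy lay between those at 0 and 6 Gy, and for let-7b-5p and let-7c-5p unirradiated replicate 3 was the one culture at 0 Gy that overlapped the 2 Gy values. Without that array the 3 main arms were called lower at 2 Gy, with differences of -1.93, -2.16 and -1.496 for let-7b-5p, let-7c-5p and let-7i-5p (adjusted p = 0.0171, 0.0142 and 0.0221, limma). They were then among 121 of the 283 miRNAs called, in place of 36. Without replicate 2 at 2 Gy let-7c-5p was called lower, with -2.03 (adjusted p = 0.0386, limma). Without the 2 arrays on which both spike-ins were undetected, let-7d-3p was called lower as well, with a difference of -0.67 (adjusted p = 0.00563, limma), among 137 of the 283 miRNAs called.

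At 10 Gy against 0 Gy no let-7 arm passed the test either, and 0.353% of the 283 miRNAs were called (1 miRNA, higher). The main arms differed by -0.84 ± 0.65, -0.74 ± 0.68 and -0.75 ± 0.53 for let-7b-5p, let-7c-5p and let-7i-5p (adjusted p = 0.468, 0.530 and 0.420, limma). Their 95% confidence intervals ran from -2.24 to 0.55, from -2.20 to 0.71 and from -1.88 to 0.38. Replicate 3 at 0 Gy weighed on these values too. Without it the differences were -1.45, -1.35 and -1.23 in the same order (adjusted p = 0.0913, 0.119 and 0.0844, limma), and 43 of the 283 miRNAs were called in place of 1. Without the 4 arrays with an undetected spike-in the differences were the same, since that array is the only one of the 4 at these doses, with adjusted p = 0.0550, 0.0810 and 0.0782 (limma) and 54 miRNAs called. Neither the slope per Gy nor the test of any difference among doses called a let-7 arm, and 0% of the 283 miRNAs were called by either. At an unadjusted p under 0.05, 36 miRNAs passed the slope, none of them a let-7 arm, and 91 passed the test of any difference, among them the 3 main arms (adjusted p = 0.118, 0.119 and 0.112, limma). Without replicate 3 at 0 Gy the test of any difference called 4 let-7 arms among 122 miRNAs. No arm was called at 6 Gy against 2 Gy, where 0% of the 283 miRNAs were called and 4.95% (14), no let-7 arm among them, had an unadjusted p under 0.05.

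At 10 Gy against 6 Gy, the other comparison within a slide, the main arms were higher in each of the 4 pairs of same-numbered cultures. let-7d-3p was higher in 3 of the 4 pairs, and let-7b-3p and let-7f-1-3p were lower in all 4. How many of the 283 miRNAs moved in the same direction in all 4 pairs was not counted. The difference was 1.40 ± 0.65 for let-7b-5p, 1.49 ± 0.68 for let-7c-5p and 1.17 ± 0.53 for let-7i-5p, with an adjusted p of 0.321 for each (limma), and 0% of the 283 miRNAs were called. With an unadjusted p under 0.05 stood 42 miRNAs (14.8%), including these 3 arms and let-7d-3p. Same-numbered cultures deviated together at these doses (correlations of 0.226 to 0.715), but only 2 of 4 correlated best with their own number. With the replicate number as a block on the 8 arrays of 6 and 10 Gy the 3 main arms were called higher, with adjusted p = 0.0325, 0.0325 and 0.0433 for let-7b-5p, let-7c-5p and let-7i-5p (limma), among 55 of 283 miRNAs called. The labels give no pairing, and this block was not planned but chosen from these same values. Its p-values are therefore no independent evidence. The labelling spike-in differed in the same direction, by 4.68 log2 units (10 Gy at 6.38 ± 1.26 and 6 Gy at 1.70 ± 3.86, SD, n = 4 each, exact two-sided permutation p = 0.0286, the smallest that 4 against 4 arrays allow, adjusted over 5 comparisons p = 0.143). With the spike-in as a covariate the differences of the main arms were 0.40, 0.48 and 0.51 (adjusted p = 0.841 each, limma). Without the 4 arrays with an undetected spike-in, 2 of them at 6 Gy, they were 0.55, 0.64 and 0.72, and that of let-7d-3p was 0.25 (adjusted p = 0.915 each, limma).

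let-7b-3p and let-7f-1-3p varied far less, at levels close to the floor of -4.60. let-7b-3p, the partner of let-7b-5p, read -3.90, -4.30, -3.74 and -4.04 at 0 Gy and -3.89, -4.23, -3.73 and -3.69 at 2 Gy. It read -3.69, -3.83, -4.10 and -3.70 at 6 Gy and -4.05, -4.24, -4.24 and -3.86 at 10 Gy. Replicate 2 was the lowest culture at 0 and 2 Gy, where it was the highest for let-7b-5p, and the doses overlapped throughout. let-7f-1-3p ran alongside at slightly lower values, from -4.43 to -3.75 over the 16 arrays. Both arms had dim signals, 16.5 to 53.1 intensity units for let-7b-3p and 14.98 to 52.3 for let-7f-1-3p, where let-7b-5p reached 2124. The brightest of the 4 probes of an arm exceeded the dimmest on an array by a ratio of 1.02 to 1.37 for let-7b-3p (median 1.15) and 1.03 to 1.26 for let-7f-1-3p (median 1.11).

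let-7d-3p had a pattern of its own. Its level was -2.82, -2.64, -3.84 and -3.17 at 0 Gy and -3.44, -3.39, -3.64 and -3.72 at 2 Gy. It was -3.16, -2.66, -3.25 and -4.19 at 6 Gy and -2.86, -2.76, -2.52 and -2.67 at 10 Gy. All 4 cultures at 10 Gy lay above the mean at 0 Gy and above all 4 at 2 Gy, and the lowest cultures at 0 and 6 Gy were those without a detected labelling spike-in. Its level rested on 1 of 4 probes, and the other 3 were detected on 0, 0 and 7 arrays. At 10 Gy against 6 Gy it differed by 0.61 ± 0.29 (unadjusted p = 0.04999, adjusted p = 0.321, limma) and at 10 Gy against 0 Gy by 0.42 ± 0.29 (adjusted p = 0.417, limma).

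No passenger arm passed the test in any comparison over the 16 arrays under this scaling. At 6 Gy against 0 Gy let-7b-3p differed by 0.16 ± 0.15, let-7f-1-3p by 0.13 ± 0.16 and let-7d-3p by -0.19 ± 0.29 (adjusted p = 0.380, 0.499 and 0.555, limma). The 95% confidence intervals of let-7b-3p and let-7f-1-3p ran from -0.16 to 0.49 and from -0.22 to 0.47. Neither arm was at the floor on any array at 6 Gy. Their mean levels at 0 Gy, -3.99 and -4.07, already lay close to the floor of -4.60. A fall as large as those of the main arms could therefore not have shown in them. The direction of these small differences depends on the scaling. With the 75th percentile taken over all probes, which moved the median of all 283 miRNAs to 0.47, let-7b-3p differed by 0.54 and let-7f-1-3p by 0.49 and both were called higher (adjusted p = 0.0295 and 0.0448, limma), while let-7d-3p turned to 0.19. Relative to that median the differences of let-7b-3p and let-7f-1-3p were close to 0.

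The difference between the arms of 1 hairpin on an array does not depend on the division by the array's percentile, which cancels in it except where a value meets the floor. Quantile normalization does not cancel. Because the arms have different probes, the size of the difference on an array is not a ratio of their amounts, and only its change between arrays and doses can be read. The level of let-7b-5p minus that of let-7b-3p was 4.48, 5.78, 2.35 and 5.11 at 0 Gy, and 2.62, 4.61, 2.33 and 2.44 at 2 Gy. It was 1.39, 3.55, 2.48 and 0.69 at 6 Gy and 3.52, 4.45, 3.96 and 2.84 at 10 Gy. The gap was thus smallest in replicates 4 and 1 at 6 Gy and widest in replicates 2 and 4 at 0 Gy, and replicate 3 at 0 Gy lay among the 6 Gy values. The gap averaged 2.03 ± 1.25 at 6 Gy and 4.43 ± 1.49 at 0 Gy (SD, n = 4 each), a difference of -2.40 ± 0.78 (adjusted p = 0.0326, limma over the 15 hairpins with both arms tested). The measured gap was thus smaller at 6 Gy, but let-7b-3p already lay close to the floor at 0 Gy. A fall as large as that of let-7b-5p could not have shown in that arm. Whether the main arm of let-7b fell relative to its passenger arm therefore cannot be decided from this gap. In this comparison 46.7% of the 15 hairpins (7) were called in one direction or the other. An exact two-sided permutation test of the same 4 against 4 arrays gave p = 0.0857, where the smallest it allows is 0.0286. The call was lost without replicate 1, 2 or 4 at 0 Gy or replicate 1 or 4 at 6 Gy, with differences from -2.39 to -1.95 (adjusted p = 0.0648 to 0.0952, limma).

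The gap of let-7b stood beside those of other hairpins. The most negative differences at 6 Gy against 0 Gy among the other hairpins were those of miR-425 (-2.21), miR-21 (-2.12) and miR-183 (-1.31), the first and second of them called. The most positive were those of miR-23a (1.67), miR-193b (1.498, called) and miR-186 (0.59), so the differences had both signs. In every hairpin the arms were subtracted by their side, in the same order as for let-7b. Which arm is the main one was not determined for the other hairpins. The signs therefore do not show whether their main arms fell or rose relative to their passenger arms. The let-7b gap differed by -1.43 ± 0.78 at 2 Gy against 0 Gy (adjusted p = 0.136, limma, 46.7% of hairpins called), by -2.12 without replicate 3 at 0 Gy (adjusted p = 0.0193, limma) and by -0.74 ± 0.78 at 10 Gy against 0 Gy (adjusted p = 0.572, 13.3% called). At 6 Gy against 2 Gy it differed by -0.97 ± 0.78 (adjusted p = 0.679, 6.67% called). At 10 Gy against 6 Gy it differed by 1.66 ± 0.78 (adjusted p = 0.177, limma, 0% called). With the replicate block on those 8 arrays, which was chosen from these same values, the difference was called (adjusted p = 0.0176, limma). It was 0.52 with the spike-in covariate (adjusted p = 0.763, limma) and 0.68 without the 4 arrays with an undetected spike-in (adjusted p = 0.702, limma), and neither was called.

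**Figure D3:**
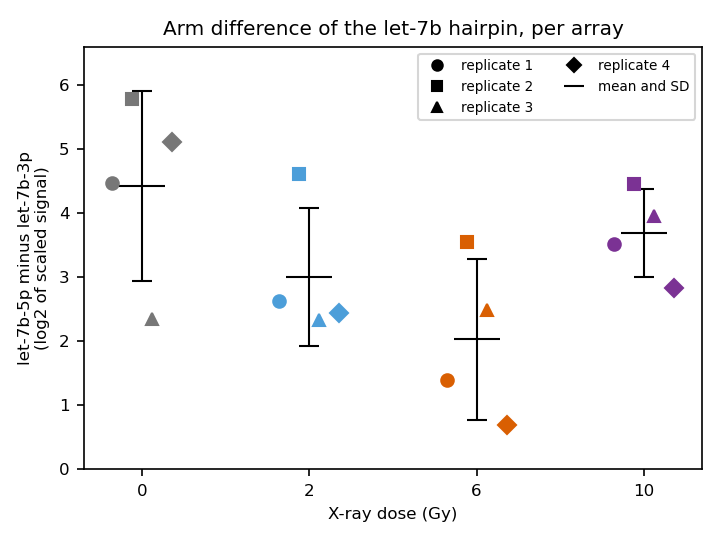
Level of let-7b-5p minus that of let-7b-3p on each array (log2 units, vertical axis) by X-ray dose in Gy (horizontal axis), with the mean and SD of each dose. The lowest values, 0.69 and 1.39, are at 6 Gy and the highest, 5.78, is at 0 Gy. Replicate 3 at 0 Gy lies at 2.35.

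The let-7 levels moved with the labelling spike-in from array to array. Over 16 arrays Pearson's r was 0.795 for let-7b-5p, 0.788 for let-7c-5p, 0.690 for let-7i-5p and 0.712 for let-7d-3p. It was -0.640 for let-7b-3p and -0.582 for let-7f-1-3p, so the main arms and let-7d-3p ran with the spike-in and the other passenger arms ran against it. Spearman's rho was 0.839, 0.833, 0.827, 0.602, -0.703 and -0.648 for the arms in the same order, and the permutation p-values adjusted over the 6 arms ran from 0.00027 to 0.0180 for r and from 0.00039 to 0.0152 for rho. Within the slide of 0 and 2 Gy r was 0.755 for let-7b-5p and 0.722 for let-7c-5p, with adjusted exact permutation p of 0.0826 for both. Within the slide of 6 and 10 Gy it was 0.926 and 0.912 (adjusted exact permutation p = 0.0029 for both). The relation of the main arms also held for deviations from the dose means, with r = 0.818, 0.796 and 0.666 for let-7b-5p, let-7c-5p and let-7i-5p (adjusted permutation p = 0.0003, 0.00042 and 0.00765). With the 2 arrays left out that lay farthest from the median spike-in, those with neither spike-in detected, r was 0.783, 0.793 and 0.685 for the main arms. Over the same 14 arrays it was 0.427 for let-7d-3p, -0.553 for let-7b-3p and -0.475 for let-7f-1-3p, with adjusted permutation p of 0.128, 0.0591 and 0.104. Spearman's rho over these 14 arrays was 0.407, -0.644 and -0.530 for the same 3 arms (adjusted permutation p = 0.150, 0.0231 and 0.0649). The relation of let-7b-3p thus still passed by rank, and those of let-7d-3p and let-7f-1-3p passed by neither measure. An array with an undetected spike-in was given a log2 signal of -3.32 for that RNA.

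**Figure D4:**
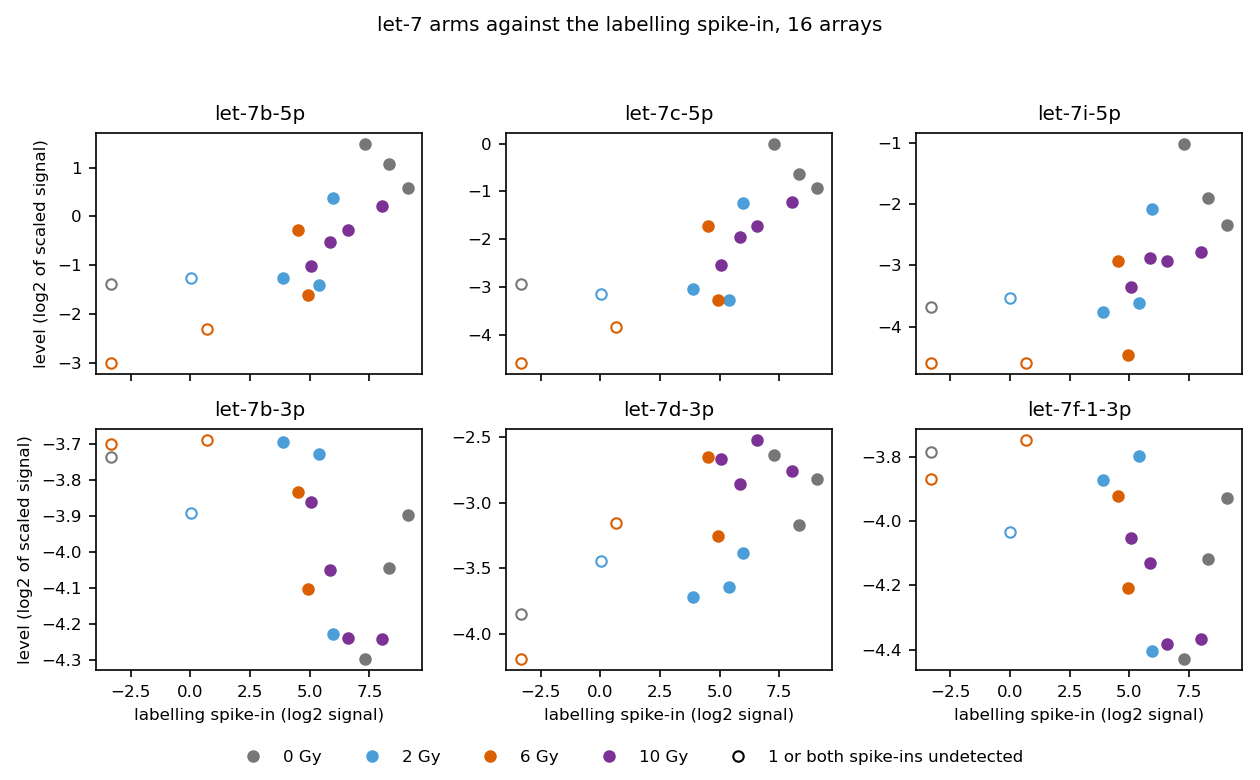
Level of each let-7 arm (log2 of scaled signal, vertical axis, own range in each panel) against the mean log2 signal of the labelling spike-ins (horizontal axis) on the 16 arrays, coloured by dose. Open points are arrays with 1 or both spike-ins undetected. The main arms and let-7d-3p are higher where the spike-in is bright (r of 0.690 to 0.795), and let-7b-3p and let-7f-1-3p are lower there (r of -0.640 and -0.582).

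The labelling spike-in averaged 1.70 ± 3.86 at 6 Gy and 5.35 ± 5.83 at 0 Gy (log2 signal, SD, n = 4 each). It thus differed by -3.65, in the direction of the main arms (exact two-sided permutation p = 0.343, adjusted over 5 comparisons p = 0.714). Against 0 Gy it differed by -1.53 at 2 Gy and, opposite to the main arms, by 1.03 at 10 Gy (exact permutation p = 0.629 and 0.971). With the spike-in as a covariate the 6 Gy against 0 Gy differences were -1.46 for let-7b-5p (adjusted p = 0.0480), -1.44 for let-7c-5p (adjusted p = 0.0525) and -1.40 for let-7i-5p (adjusted p = 0.0519, limma). These are smaller than without it, and 1 of the 3 calls remained. The let-7b gap was -1.51 in that fit (adjusted p = 0.0612, limma).

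Across the 16 arrays the main arms were nearly interchangeable. Pearson's r was 0.994 between let-7b-5p and let-7c-5p, 0.967 between let-7b-5p and let-7i-5p and 0.960 between let-7c-5p and let-7i-5p, and let-7b-3p with let-7f-1-3p gave 0.977. Between let-7b-5p and its own partner let-7b-3p it was -0.714. The within-dose SD was 0.99 for let-7b-5p, 1.04 for let-7c-5p and 0.80 for let-7i-5p, and only 11, 8 and 25 of the 283 miRNAs varied more. It was 0.43 for let-7d-3p, exceeded by 50 miRNAs, and 0.22 for let-7b-3p and 0.23 for let-7f-1-3p, beside a median of 0.23 over all 283. These correlations share the arrays, their scaling and their labelling, and they are given as descriptions.

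**Figure D5:**
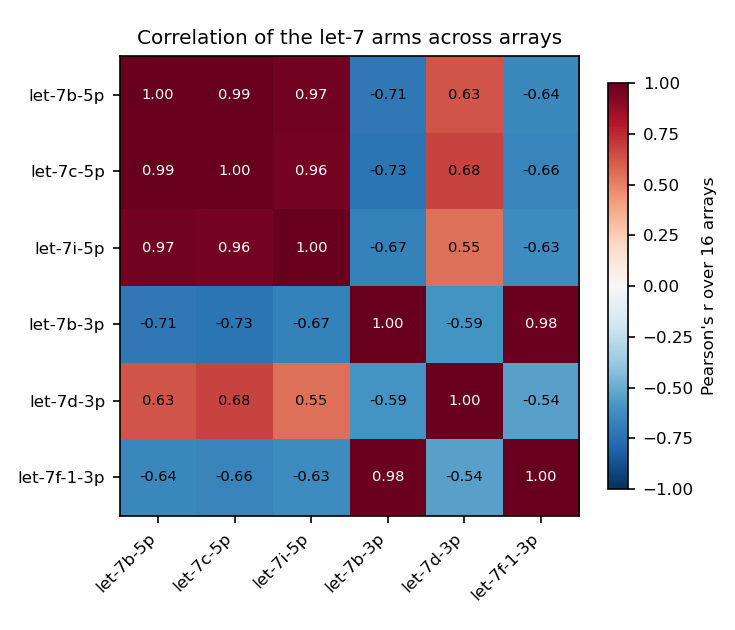
Pearson's r between the levels of each pair of let-7 arms over 16 arrays (colour and printed value, from -1 to 1). The main arms form a block of 0.96 to 0.99, let-7b-3p and let-7f-1-3p form another at 0.98, and values between both blocks lie between -0.63 and -0.73.

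Many other miRNAs had the same profile over the arrays. The 5 nearest to the mean of the main arms were miR-210-3p (r = 0.976 over 16 arrays), miR-320d (0.970), miR-320e (0.970), miR-324-3p (0.967) and miR-29a-3p (0.964). Of 277 miRNAs outside the list, 22 had r over 0.9 with let-7b-5p. The nearest to let-7b-3p were miR-2116-3p (0.988), miR-4310 (0.9804) and miR-23c (0.974), and the same 3 were nearest to let-7f-1-3p, with r over 0.9 for 27 and 21 of 277 miRNAs. For let-7d-3p the nearest were miR-584-5p (0.851), miR-92a-3p (0.847) and miR-151a-3p (0.836), and no miRNA exceeded 0.9.

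The rest of the family was at or under the detection limit. The array held 18 arms of let-7 and miR-98, of which 12 were not among the 6, and none of these 12 passed the filter. Detected on no array were 10 of them, including let-7d-5p, let-7e-5p, let-7g-5p and miR-98-5p, main arms with the same seed. let-7a-5p was detected on 3, 1, 1 and 2 arrays at 0, 2, 6 and 10 Gy, and let-7f-5p on 2 arrays, both at 0 Gy. let-7d and let-7f were thus measured through their passenger arm alone, since neither let-7d-5p nor let-7f-5p passed the filter.

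Some let-7 hairpins lie in clusters with miR-99, miR-100 and miR-125 hairpins, with which they can share a transcript. Of 13 such cluster neighbours 11 were on the array, 7 were detected on at least 1 array and 4 were tested. The list covers let-7 genes in general and not only those of the 6 arms, and miR-99a-5p and miR-99a-3p were detected on no array. miR-125b-5p fell by 3.41 on the log2 scale at 6 Gy against 0 Gy (mean level -3.58 ± 1.22 in irradiated and -0.17 ± 2.18 in unirradiated cultures, SD, n = 4 each, adjusted p = 0.0407, limma). miR-100-5p fell by 2.43 in the same comparison (-3.56 ± 1.15 at 6 Gy and -1.12 ± 1.41 at 0 Gy, adjusted p = 0.0450, limma). Both were also called lower at 2 Gy, with differences of -3.53 and -2.82 (adjusted p = 0.0417 and 0.0333, limma), a dose at which no let-7 arm was. The passenger arms miR-125a-3p and miR-99b-3p differed by 0.31 and 0.16 at 6 Gy against 0 Gy and were not called (adjusted p = 0.0538 and 0.159, limma). At 6 Gy the white blood cell miRNA miR-155-5p was called higher by 0.31 (adjusted p = 0.0407, limma) while miR-486-5p, abundant in red cells, was not called (0.21, adjusted p = 0.142), and the part of serum RNA in the let-7 differences was not tested. Of the 10 colorectal epithelial miRNAs 4 were tested, miR-200c-3p and miR-141-3p, detected on 15 arrays each, and miR-21-5p and miR-31-5p, detected on 11 each. Of these 4, 1 was called lower at 6 Gy against 0 Gy, miR-21-5p, abundant in many carcinomas (-2.72, adjusted p = 0.0304, limma). The difference was -2.50 for miR-200c-3p, -2.07 for miR-141-3p and -1.69 for miR-31-5p (adjusted p = 0.0514, 0.0570 and 0.0603, limma). The median of these 4 was -2.29, beside 0.12 over all 283 miRNAs. Their r with the mean of the main arms ran from 0.804 to 0.953 over the 16 arrays, which share scaling and labelling, and their part in the let-7 differences was not tested.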

How the data were processed

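Per the labels' protocols, ISOGEN was used to extract small RNA from culture supernatant, of which 100 ng received the dye Cy3. Per the file headers, each deposited file is the output for 1 array of Agilent's Feature Extraction software (release 11.5.1.1), and its processed signal is an intensity after background subtraction, with arrays left unscaled. Spots that were controls or flagged as outliers were dropped, and a probe's other spots were averaged. Detection required that a share above 0.5 of a probe's spots be flagged well above background. Arrays were divided by the 75th percentile of the 518 probes detected on all 16 arrays and floored at 0.0412 scaled units, a typical 5th percentile among detected probes, before log2 was taken. A miRNA was tested if a probe was detected on all 4 arrays of 1 dose, and its level is the mean of its probes that passed, 592 probes for 283 miRNAs.

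Dose comparisons used limma 3.58.1 under R 4.3.3, with the files read by version 1.17.8 of the data.table package, with a mean per dose over 16 arrays, adjusted by Benjamini-Hochberg at 0.05, and fold sizes are on the floored log2 scale. The scripts were tested on simulated data. Permutation tests used 100000 resamples for 14 or 16 arrays and complete enumeration for 8. Plots were made in Python 3.11.15 with matplotlib 3.10.9. The number of arrays limits the precision, and a change common to every miRNA is lost in the scaling.

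The arms and lists were chosen with earlier results of these data known, so neither is independent evidence. Named were the 6 arms, the other let-7 and miR-98 arms, the tested cluster neighbours and marker miRNAs, the 5 miRNAs most like the main arms and 3 most like each passenger arm, and the 3 hairpins with the most negative and the 3 with the most positive arm difference besides let-7b. Labels give replicate numbers without saying what they share. The correlation of same-numbered cultures' deviations from their dose means, over all 283 miRNAs, exceeded 0.1 in all 4 pairs for 10 Gy against 6 Gy only (0.226 to 0.715), so the blocked fit stands beside that comparison. Alternatives were the scaling, background correction, Agilent's total signal, floor, filter, blocks, spike-in covariate, fewer arrays and leaving out each array.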

Additional observations from a re-analysis of the deposited data

Results flagged for a closer look

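Over the 6 arms and 4 doses, 24 groups of 4 arrays were examined for a culture far from its group, measured as its gap to the nearest culture divided by the range of the group, and 4 were found, where chance marks about 1 in 20. The 24 groups are not independent, since deviations of the main arms from their dose means correlated at r = 0.939 to 0.997. The 4 found are therefore no evidence of an excess over that share. The same culture gave 3 of the 4: at 2 Gy replicate 2 was the highest for let-7b-5p (level 0.38, ratio 0.920), let-7c-5p (-1.25, ratio 0.884) and let-7i-5p (-2.08, ratio 0.868). At 6 Gy replicate 2 stood above the others for let-7i-5p (-2.93, ratio 0.923), of which 2 lay at the floor. Both replicates 2 had both labelling spike-ins detected, and the part of labelling in these levels was not tested.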

How the results depend on the processing

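At 6 Gy against 0 Gy 3 of the 6 arms were called, and 5 with the 75th percentile over all probes (176 of 283 miRNAs called in all). Called was 1 arm with the labelling spike-in as covariate (29 of 283 miRNAs) or with only miRNAs detected on all arrays (35 of 217), a filter that kept 3 of the 6 arms. None was called without scaling, with the floor at 2 times its value or on only the 8 arrays of the 2 doses (0, 9 and 0 of 283 miRNAs called, 61, 112 and 75 at an unadjusted p under 0.05, limma). At 2 Gy against 0 Gy no arm was called. With the percentile over all probes 1 was called, the passenger arm let-7b-3p, higher (0.50, adjusted p = 0.04999, limma), where 113 of the 131 miRNAs called were higher. Called were 3 arms without the 4 arrays with an undetected spike-in and 4 without the 2 arrays with both undetected, among 116 and 137 of 283 miRNAs. The test of any difference among doses called 1 and 4 arms without those arrays, among 64 and 128 miRNAs. Leaving out 1 array at a time gave 0 to 3 arms called at 6 Gy against 0 Gy, 0 to 3 at 2 Gy against 0 Gy and 0 to 4 in the test of any difference. All miRNAs called then ran from 0 to 143, 0 to 121 and 0 to 122 in the same order. The main arms kept their direction under all alternatives run for 2, 6 or 10 Gy against 0 Gy and 10 Gy against 6 Gy. The let-7b gap at 6 Gy against 0 Gy was -1.51 with the spike-in covariate (adjusted p = 0.0612, limma) and -2.40 on only the 8 arrays of both doses (adjusted p = 0.138, limma) and in the exact permutation test (p = 0.0857). Quantile normalization gave -2.63 for this gap (adjusted p = 0.0298, limma). With 1 array left out the gap ran from -3.10 to -1.95. At 2 Gy against 0 Gy the gap ran from -2.12 to -0.98, and it was -1.997 without the 4 arrays and -2.12 without the 2 arrays (adjusted p = 0.0256 and 0.0123, limma).

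With the replicate number as a block over all 16 arrays the 3 calls at 6 Gy against 0 Gy were kept (adjusted p = 0.0195 each, limma), 1 arm was called at 2 Gy against 0 Gy (let-7c-5p, -1.55, adjusted p = 0.0430, limma) and 2 in the test of any difference. Over all 283 miRNAs 75, 68 and 21 were called in the same order, in place of 55, 36 and 0. At 10 Gy against 6 Gy the numbers were taken to pair the cultures because of the correlations in these same values. The block on those 8 arrays called 3 arms, among 55 of 283 miRNAs, and the let-7b gap (1.66, adjusted p = 0.0176, limma). In the other comparisons the cultures share a number only, with correlations from -0.763 to 0.848, and in no comparison did every culture correlate best with its own number.

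The passenger arms changed sign between settings, mostly between small values. Larger values came without scaling at 10 Gy against 6 Gy, -0.74 for let-7b-3p and -0.75 for let-7f-1-3p, in place of -0.27 and -0.30. At 6 Gy against 0 Gy let-7d-3p gave 0.19 with the percentile over all probes, 0.026 with quantile normalization, 0.056 without scaling, 0.26 with Agilent's total signal and 0.11 with the spike-in covariate, and -0.43 to 0.10 with 1 array left out. At 10 Gy against 0 Gy let-7b-3p and let-7f-1-3p gave 0.10 and 0.013 with the percentile over all probes, 0.10 and 0.017 with quantile normalization and 0.084 and 0.0497 with normexp. With normexp they gave -0.0054 and -0.031 at 2 Gy against 0 Gy, -0.069 and -0.088 at 6 Gy against 0 Gy and 0.15 and 0.14 at 10 Gy against 6 Gy. At 2 Gy against 0 Gy let-7f-1-3p gave -0.0075 with the spike-in covariate and -0.083 to 0.16 with 1 array left out. Quantile normalization called let-7b-3p higher at 6 Gy against 0 Gy (0.48, adjusted p = 0.0455, limma). The median of all 283 miRNAs at 6 Gy against 0 Gy was 0.12, and 0.47 with the percentile over all probes and 0.22 with quantile normalization.

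The relation to the spike-in did not pass within the slide of 0 and 2 Gy, with r of 0.755, 0.722 and 0.692 for let-7b-5p, let-7c-5p and let-7i-5p, 0.723 for let-7d-3p, -0.492 for let-7b-3p and -0.435 for let-7f-1-3p over 8 arrays. Without the 2 arrays farthest from the median r was -0.553 for let-7b-3p, 0.427 for let-7d-3p and -0.475 for let-7f-1-3p. Without scaling it was 0.481 for let-7i-5p and 0.335 for let-7d-3p, and for deviations from dose means it was -0.484 for let-7f-1-3p. The cause of these changes was not tested. Normexp used the median spot intensity in place of the mean, which was not used here, and the unfiltered setting left out miRNAs at the floor on every array. Signals near the floor limit let-7i-5p, let-7b-3p and let-7f-1-3p most.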
